A study of Mus musculus with 15 samples.

Results

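The mRNA levels of 10 core circadian clock genes (Arntl, Clock, Per1, Per2, Per3, Cry1, Cry2, Nr1d1, Nr1d2 and Dbp) were compared in the podocyte fraction of young mice and of aged mice that had received either a control antibody or an antibody against the immune checkpoint receptor PD-1. The genes were taken as a named list of textbook clock components. No measured value entered this rule, but the list was chosen with earlier results of these data known. All 10 were found by Ensembl identifier among the 46078 genes counted. Every one of the 10 passed the filter on low counts in each comparison, and the lowest count of any of them in any library was 53.

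All mice were male C57BL/6J. Young mice were 4 months old and received no injection. Aged mice were 21 months old when they were assigned at random to weekly intraperitoneal injections, 12 mg/kg for 8 weeks, of either the anti–PD-1 antibody RMP1-14 (aPD1ab) or the isotype control IgG2a antibody 2A3, and the sample titles of the aPD1ab-injected mice name 47 days. Podocytes, the epithelial cells that wrap the capillaries of the glomerulus, were enriched from digested kidney cortex with antibodies to nephrin and magnetic beads, and each library came from 1 mouse. The young mice were both younger and uninjected, so that age and injection cannot be told apart between them and the aged groups. A group could be assigned to 13 libraries, 5 from young mice, 4 from aged mice given IgG2a and 4 from aged mice given aPD1ab. The hour of the day at which each kidney was collected is not given in the sources used here.

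The circadian clock is a transcriptional feedback loop that runs in nearly every mammalian cell with a period of about a day. The activators ARNTL (also called BMAL1) and CLOCK, or its relative NPAS2, bind E-boxes and switch on the Per and Cry genes, whose proteins return to the nucleus and inhibit the activators. In an interlocked loop the nuclear receptors NR1D1 and NR1D2 (REV-ERB alpha and beta), themselves switched on through E-boxes, repress Arntl and compete with ROR activators for the same DNA element, and DBP carries the rhythm to output genes through D-boxes. Transcripts of Arntl and Npas2 therefore peak at about the opposite phase of the day to those of Dbp, Nr1d1 and the Per genes, and Cry1 runs later than the Per genes. In the kidney the clock is known for rhythms of glomerular filtration and of salt and water transport.

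The DNA elements through which these loops act were searched on both strands in RefSeq promoter windows (250 bases before to 50 after each annotated start, GRCm38.p6), which were found for 9 of the 10 genes; Per2 had none. The stretches below show where the letters of an element occur in genes whose mRNA is described next, written in the direction of the gene with the element in capitals.

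Arntl, ROR element, chr7:113207531-113207557, plus strand, 31 bases past the start: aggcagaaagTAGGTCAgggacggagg
Per1, E-box, chr11:69098773-69098798, plus strand, 166 bases before the start: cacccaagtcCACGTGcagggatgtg
Cry1, E-box, chr10:85185099-85185124, minus strand, 60 bases before the start: tgccggtggtCACGTGgggtgcatgc
Nr1d1, E-prime box, chr11:98775390-98775415, minus strand, 28 bases before the start: cacagatctcAACGTGccggctgctg
Per3, D-box, chr4:151044806-151044833, minus strand, 158 bases before the start: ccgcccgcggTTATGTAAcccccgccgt
Per3, D-box, chr4:151044853-151044880, minus strand, 205 bases before the start: gacccgcgcgTTATGTAAggtactcggg

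The E-box CACGTG was present in the windows of Per1 and Cry1, 2 of the 9 genes, and in 8.09% of the 27025 genes with a window. Per1 had 2 windows. Its E-box and the start that follows it lie inside the gene, which runs from 69095217 to 69109960, not before its first base. The E-prime box CACGTT was present in those of Cry1, Cry2 and Nr1d1 (3 of 9, against 5.44% of all genes), where the window read AACGTG, its reverse complement. The D-box TTANNTAA occurred only in Per3 among the 9 genes (6.93% of all genes), and the ROR element TAGGTCA only in Arntl (2.97% of all genes), in 1 of its 2 windows and past the start. The 4 elements do not share a site in the stretches shown. Clock, Nr1d2 and Dbp held none of these letters in the windows searched, which says nothing about elements elsewhere in those genes.

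Total counts per library ranged from 19912969 to 32717100 (median 24683223). Levels are given as CPM, counts scaled to the size of the library. On the first principal component of log2 CPM, with 46.6% of the variance, aged IgG2a replicate 1 had a score of −15.1, while replicates 2 to 4 of that group scored from 65.3 to 76.4, young mice from −37.5 to −21.2 and aPD1ab-injected mice from −60.5 to 8.97. The tests of the 10 clock genes on the aged IgG2a group are therefore given with and without this library. The summed level of 4 podocyte markers (Nphs1, Wt1, Podxl and Synpo), all of them detected in every library, ranged from 600 to 1009 CPM in young mice, from 205 to 279 CPM with IgG2a and from 155 to 523 CPM with aPD1ab. Tubule cells and macrophages were present in every library as well, so the clock gene levels are those of mixed cells, not of podocytes alone. Umod, Slc12a1 and Slc12a3, markers of the loop of Henle and distal tubule, together ranged from 5734 to 8356 CPM in young mice. With IgG2a they ranged from 5305 to 12029 CPM, highest in replicate 1, and with aPD1ab from 4913 to 9098 CPM. The sum of 6 proximal tubule markers, none of which was at 0, ranged from 3672 to 5995 CPM in young mice, stood at 2614, 492, 793 and 770 in aged IgG2a replicates 1 to 4, and ranged from 2457 to 8090 with aPD1ab. For 6 macrophage markers, none at 0, the sums ranged from 1343 to 2279, from 1766 to 5542 and from 1326 to 3081 CPM in the 3 groups in that order. The replicate numbers only name the libraries. In libraries of mixed cells, fewer cells of a type and less RNA per cell cannot be told apart.

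Per length of transcript, the REV-ERB genes and Per1 were the most abundant of the clock genes in young mice. Mean levels in RPKM, CPM divided by the exon length in kilobases (± SD, n = 5), were 21.9 ± 3.76 for Nr1d1, 15.95 ± 1.71 for Per1, 11.8 ± 1.65 for Nr1d2 and 4.19 ± 0.843 for Clock. A group of near-equal genes followed, with Arntl at 2.65 ± 0.489, Per2 at 2.63 ± 0.922, Dbp at 2.54 ± 0.856 and Cry2 at 2.36 ± 0.200 RPKM. Cry1 at 1.38 ± 0.198 and Per3 at 1.14 ± 0.156 RPKM came last. Among neighbours in this order, the 5 young libraries of Nr1d1 and Per1 overlapped, as did those of Cry1 and Per3 and of each pair of neighbours from Arntl to Cry2, and the other neighbours were separated in all 5 libraries.

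The 10 genes differed in how much they varied between libraries. Over all 13 libraries, the highest CPM was 15.9 times the lowest for Dbp and 4.90 times for Arntl, against 1.57 times for Cry2 and 2.17 times for Clock. Within the young group alone the same ratio was 2.69 for Dbp and 1.61 for Arntl. It was 15.9 and 4.82 among the aged IgG2a libraries and 10.1 and 4.11 among the aged aPD1ab libraries, so that the full range of Dbp was already reached within the IgG2a group.

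**Figure D1:**
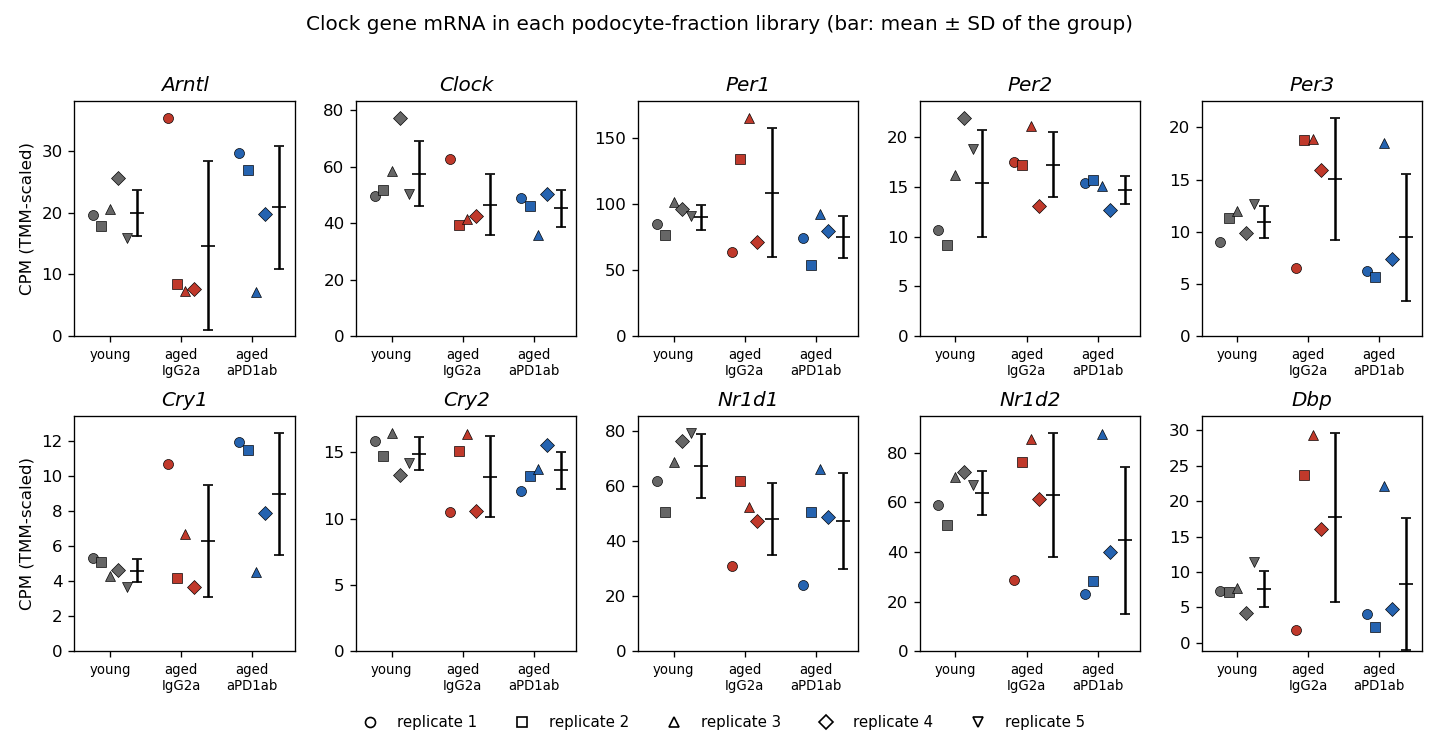
Level of each clock gene in each library, as CPM after TMM scaling (vertical axes, linear) by group, with young mice on the left. Marker shapes give the replicate number, which only names a library, and bars give the mean ± SD of the group. Aged IgG2a replicate 1 and aged aPD1ab replicate 3 lie away from the other 3 libraries of their group for Arntl, Per3 and Dbp.

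Arntl (ENSMUSG00000055116, chromosome 7, 113207465 to 113314126 on the plus strand) encodes the obligate activator of the loop. It stood at 19.6, 17.8, 20.6, 25.7 and 15.9 CPM in the 5 young libraries. In aged IgG2a replicates 1 to 4 it stood at 35.3, 8.34, 7.33 and 7.67 CPM, and in aged aPD1ab replicates 1 to 4 at 29.6, 26.9, 7.20 and 19.8 CPM. Aged IgG2a replicate 1 was above every young library and the other 3 were below every young library. In the aPD1ab group, replicates 1 and 2 were above the young range, replicate 4 was inside it and replicate 3 was below it.

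Clock (ENSMUSG00000029238, chromosome 5, 76209868 to 76304792 on the minus strand), whose protein pairs with ARNTL, stood at 49.7, 51.8, 58.7, 77.3 and 50.5 CPM in young mice. The aged IgG2a libraries held 62.9, 39.5, 41.5 and 42.7 CPM and the aged aPD1ab libraries 49.03, 46.1, 35.7 and 50.3 CPM. As for Arntl, the highest aged IgG2a value was that of replicate 1 and the lowest aPD1ab value that of replicate 3, over a narrower range.

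Npas2, the relative of Clock that can take its place beside ARNTL, is no member of the list of 10 but showed the widest range of the activators. It stood at 6.88, 9.04, 9.17, 9.90 and 5.64 CPM in young mice, at 13.1, 0.941, 0.970 and 1.59 CPM with IgG2a and at 8.53, 20.8, 1.81 and 9.36 CPM with aPD1ab. The libraries low in Arntl were those low in Npas2.

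Of the inhibitors, Per1 and Per2 are induced quickly by many signals as well as by the clock, whereas Per3 mostly follows the rhythm. Per3 (ENSMUSG00000028957, chromosome 4, 151003652 to 151044665 on the minus strand), which carries the D-boxes shown above, stood at 9.00, 11.3, 11.9, 9.83 and 12.6 CPM in young mice. It stood at 6.54, 18.8, 18.9 and 15.97 CPM in aged IgG2a replicates 1 to 4 and at 6.24, 5.66, 18.5 and 7.34 CPM in aged aPD1ab replicates 1 to 4. Here aged IgG2a replicate 1 and aPD1ab replicates 1, 2 and 4 were below every young library, and the other 4 aged libraries were above every young library.

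Per1 (ENSMUSG00000020893, chromosome 11, 69095217 to 69109960 on the plus strand) ranged from 76.6 to 101 CPM in young mice (median 90.5). Aged IgG2a replicates 2 and 3 held 134 and 165 CPM, against 63.9 and 71.2 CPM in replicates 1 and 4, and the aPD1ab libraries ranged from 54.1 to 92.4 CPM. Per2 (ENSMUSG00000055866, chromosome 1, 91415982 to 91459324 on the minus strand) ranged from 9.19 to 21.9 CPM in young mice, a range that contained all 8 aged libraries (12.6 to 21.2 CPM).

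Cry1 (ENSMUSG00000020038, chromosome 10, 85131700 to 85185064 on the minus strand), the strongest repressor of the loop, stood at 5.31, 5.13, 4.33, 4.67 and 3.66 CPM in young mice. The aged IgG2a libraries held 10.7, 4.17, 6.73 and 3.66 CPM and the aged aPD1ab libraries 12.0, 11.5, 4.54 and 7.90 CPM. Except for aPD1ab replicate 3, each aPD1ab library was above all young libraries. Cry2 (ENSMUSG00000068742, chromosome 2, 92403646 to 92434043 on the minus strand), a repressor with little rhythm of its own in most tissues, ranged from 13.3 to 16.4 CPM in young, from 10.5 to 16.4 CPM in IgG2a-injected and from 12.1 to 15.5 CPM in aPD1ab-injected mice. Its exons share 295 bases (4.67%) with D930015M05Rik on the other strand.

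The REV-ERB genes form the arm that represses Arntl. Nr1d2 (ENSMUSG00000021775, chromosome 14, 18204054 to 18239127 on the minus strand) stood at 58.7, 50.8, 70.3, 72.4 and 66.8 CPM in young mice. In the aged IgG2a libraries it stood at 28.9, 76.1, 85.5 and 61.3 CPM, and in the aPD1ab libraries at 22.9, 28.1, 87.5 and 40.0 CPM. The 4 lowest values were those of aged IgG2a replicate 1 and aPD1ab replicates 1, 2 and 4, the same libraries as for Per3. Nr1d1 (ENSMUSG00000020889, chromosome 11, 98767932 to 98775333 on the minus strand) ranged from 50.7 to 79.2 CPM in young mice (median 68.6), stood at 30.9, 61.8, 52.4 and 47.1 CPM with IgG2a and at 24.02, 50.4, 66.2 and 48.7 CPM with aPD1ab. Its exons overlap those of Thra on the other strand over 263 bases (8.55% of its exon length), and the strand setting of the counting is not given in the sources used here.

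Dbp (ENSMUSG00000059824, chromosome 7, 45705088 to 45710203 on the plus strand) encodes the PAR bZIP activator that binds D-boxes and is a direct target of ARNTL and CLOCK. It stood at 7.38, 7.18, 7.70, 4.26 and 11.5 CPM in young mice. In aged IgG2a replicates 1 to 4 it stood at 1.85, 23.7, 29.4 and 16.03 CPM, and in aged aPD1ab replicates 1 to 4 at 4.00, 2.20, 22.1 and 4.83 CPM. Aged IgG2a replicate 1 held the lowest level of all 13 libraries, while replicates 2 to 4 and aPD1ab replicate 3 held the 4 highest. Sphk2 overlaps 18.0% of its exon length on the other strand (539 bases). Whether reads in those shared bases were counted for Dbp depends on the strand setting, which is not given in the sources used here.

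As the log2 CPM of Dbp minus that of Arntl, the balance ranged from −2.57 to −0.47 in young mice. It was −4.20, 1.50, 1.99 and 1.06 in aged IgG2a replicates 1 to 4 and −2.86, −3.57, 1.61 and −2.02 in aged aPD1ab replicates 1 to 4. Only 1 of the 8 aged libraries, aPD1ab replicate 4, lay inside the young range. In each aged group, libraries lay on both sides of that range, 3 above and 1 below with IgG2a and 1 above and 2 below with aPD1ab.

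Some other features set apart the libraries with more Dbp than Arntl, but did not follow the balance throughout. The share of counts on mitochondrially encoded genes was between 23.1% and 30.4% in young mice, 29.3%, 38.7%, 46.2% and 54.9% in aged IgG2a replicates 1 to 4 and 25.4%, 25.2%, 38.5% and 20.4% in aged aPD1ab replicates 1 to 4. The 4 libraries with more Dbp than Arntl were the 4 with the highest mitochondrial share. Those 4 also held the 4 lowest sums of proximal tubule markers and the 4 highest sums of macrophage markers (3081 to 5542 CPM, against 1326 to 2565 CPM in the other libraries). Aged IgG2a replicate 1, the lowest of all in this balance, had the next lowest proximal tubule sum, 2614 CPM. Its mitochondrial share was 29.3% and its macrophage sum 1766 CPM. With a proximal tubule marker score as a covariate, the log2 fold change of IgG2a-injected over young mice turned for Arntl from −0.38 to 1.26 (edgeR adjusted p = 0.243) and for Dbp from 1.30 to −2.51 (edgeR adjusted p = 0.389). The marker sums of IgG2a-injected and young mice did not overlap, so that fit cannot separate these groups from tubule content. It called 0.107% of the 15953 genes tested. The part of the mitochondrial share, of macrophages and of the hour of collection in the clock gene levels was not tested.

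**Figure D2:**
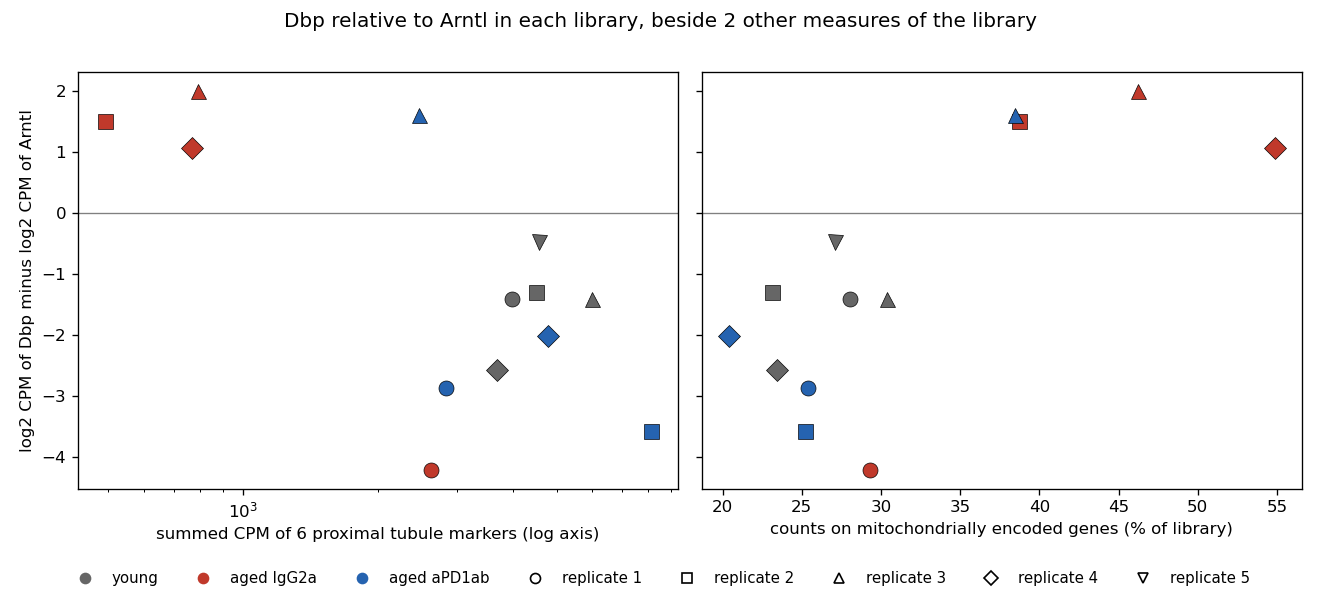
Balance of Dbp over Arntl (log2 CPM difference, vertical axes) in each of the 13 libraries, against the summed CPM of 6 proximal tubule markers (left, log axis) and the percentage of counts on mitochondrially encoded genes (right). Colours give the group and marker shapes the replicate number. The 4 libraries above 0, aged IgG2a replicates 2 to 4 and aPD1ab replicate 3, hold the 4 lowest marker sums and the 4 highest mitochondrial percentages. Among the other libraries, aged IgG2a replicate 1 has the lowest balance and also the lowest marker sum.

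Comparing aged IgG2a-injected with young mice asks what differs with age and injection together. With all libraries (n = 4 and n = 5), 0 of the 10 clock genes passed an adjusted p of 0.05, against 17.4% of the 15953 genes tested by the quasi-likelihood F test of edgeR after Benjamini-Hochberg adjustment, and 0 of the 10 had an unadjusted p under 0.05 (36.2% of all genes). Values of the groups overlapped for each of the 10 genes, whereas 14.5% of all genes had no overlap. DESeq2 also called 0 of the 10 (27.9% of all genes), while voom with sample quality weights, a fit that counts an unusual library for less, called 4 of the 10, near the 46.5% of all genes that it called. Those 4 were Arntl (−1.11), Per1 (0.57), Per3 (0.79) and Dbp (1.59). The largest difference was that of Dbp, at 17.7 ± 11.9 CPM (SD, n = 4) with IgG2a and 7.59 ± 2.56 CPM (SD, n = 5) in young mice, which is 1.30 on the log2 scale (standard error 0.59) with an edgeR adjusted p of 0.141. Its 95% interval, −0.011 to 2.61, held both no difference and a rise of over 2 log2 units. For Arntl the values were 14.7 ± 13.8 and 19.9 ± 3.68 CPM, with a log2 fold change of −0.38 (95% interval −1.38 to 0.61, edgeR adjusted p = 0.561).

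Without aged IgG2a replicate 1 (n = 3 and n = 5), 4 of the 10 clock genes passed, near the 45.6% of the 16216 genes tested that passed there. That library was picked by its expression in these same data. Standard errors and p-values of fits without it therefore leave out its part of the spread between mice. Arntl fell to 7.78 ± 0.517 CPM, which is −1.30 on the log2 scale (standard error 0.16, edgeR adjusted p = 1.1e-04), and Clock to 41.2 ± 1.64 CPM (−0.43, standard error 0.14, edgeR adjusted p = 0.0307). Per3 rose to 17.9 ± 1.67 CPM (0.77, standard error 0.13, edgeR adjusted p = 8.9e-04) and Dbp to 23.04 ± 6.71 CPM (1.66, standard error 0.28, edgeR adjusted p = 0.0013). These were also the 4 genes whose groups did not overlap, as for 46.8% of all genes tested. The other 6 had adjusted p-values from 0.0921 (Per1, log2 fold change 0.52) to 0.902 (Cry2, −0.025).

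**Figure D3:**
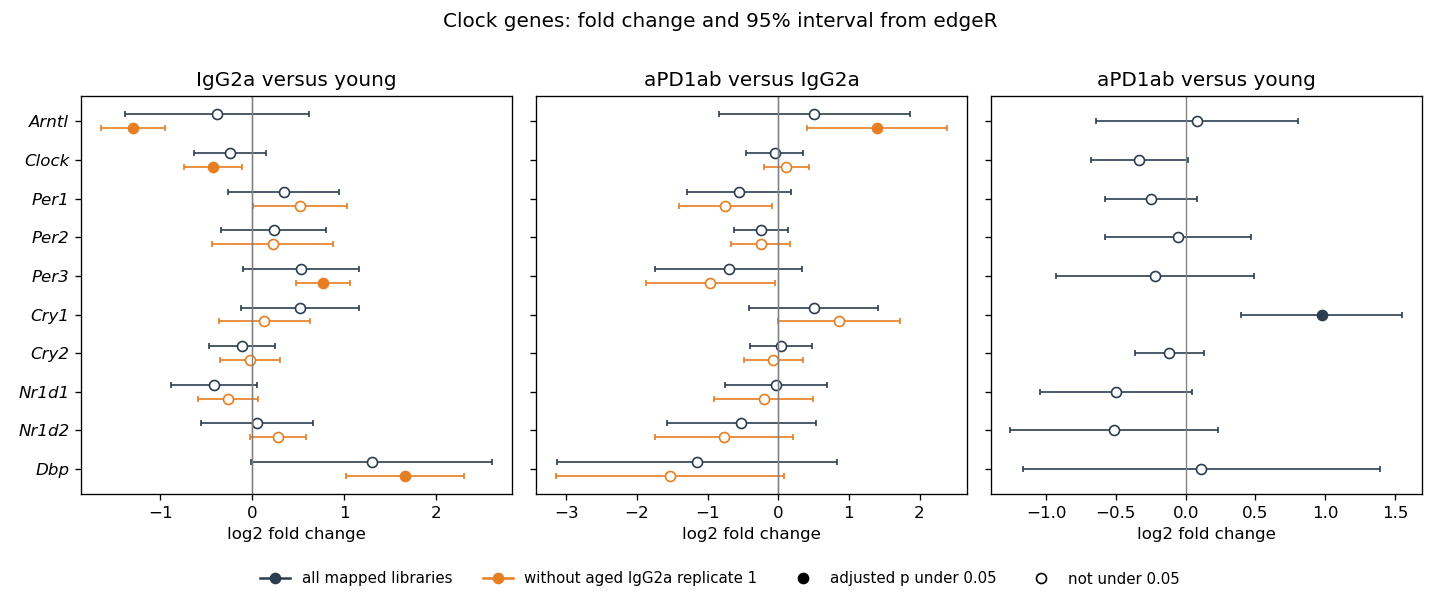
Log2 fold change of each clock gene with its 95% interval from edgeR, for aged IgG2a versus young, aged aPD1ab versus aged IgG2a and aged aPD1ab versus young mice (horizontal axes differ in range). Dark points use all libraries, orange points leave out aged IgG2a replicate 1, and filled points have an adjusted p under 0.05. With all libraries the filled point is that of Cry1 for aPD1ab versus young, and without replicate 1 Arntl, Clock, Per3 and Dbp are filled on the left and Arntl in the middle.

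The effect of the antibody is addressed by aged aPD1ab-injected against aged IgG2a-injected mice. Over all libraries (n = 4 and n = 4) none of the 10 genes passed in edgeR, which called 0% of the 15530 genes tested, and 0 of the 10 had an unadjusted p under 0.05 against 28% of all genes. No clock gene was without overlap of the groups, against 12% of all genes. DESeq2 called 0 of the 10 and 15.3% of all genes. The log2 fold changes ran from −1.14 for Dbp (95% interval −3.13 to 0.84) to 0.51 for Arntl (95% interval −0.84 to 1.86). Both intervals held no change as well as a change of over 1 log2 unit. Voom with sample quality weights called 4 of the 10, Arntl (1.15), Per3 (−1.18), Nr1d2 (−0.93) and Dbp (−2.06), near the 39.7% of all genes that it called. Without aged IgG2a replicate 1 (n = 4 and n = 3), 1 of 10 genes passed, against 30.4% of the 15770 genes tested. That gene was Arntl, higher with aPD1ab by 1.40 (standard error 0.43, edgeR adjusted p = 0.0420), and its groups still overlapped because of aPD1ab replicate 3. At an unadjusted p under 0.05 there were 4 of 10 (43.8% of all genes), and 0 of 10 were without overlap (43.2% of all genes). Besides Arntl, those 4 were Per1 (−0.75, edgeR adjusted p = 0.0794), Per3 (−0.96, edgeR adjusted p = 0.09997) and Cry1 (0.87, edgeR adjusted p = 0.113). Dbp, not among them, differed by −1.53 (edgeR adjusted p = 0.131). Both comparisons use the same IgG2a libraries, so that the low Arntl of replicates 2 to 4 enters both.

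Between aged aPD1ab-injected and young mice (n = 4 and n = 5), a comparison free of the IgG2a libraries, 1 of 10 clock genes passed, against 22.4% of the 15986 genes tested, and the same 1 had an unadjusted p under 0.05 (36.9% of all genes). None of the 10 was without overlap of the groups (22% of all genes). Cry1 rose from 4.62 ± 0.661 CPM (SD, n = 5) to 8.98 ± 3.48 CPM (SD, n = 4), or 0.97 on the log2 scale (95% interval 0.40 to 1.55, standard error 0.26, edgeR adjusted p = 0.0243), and was higher than every young library in 3 of 4 aPD1ab libraries. The call was lost without aPD1ab replicate 1 (0.80, edgeR adjusted p = 0.0567), without young replicate 3, 4 or 5 (edgeR adjusted p from 0.0527 to 0.0554) and in 1 fit of all 3 groups (0.96, edgeR adjusted p = 0.0569). Without aPD1ab replicate 3, 3 of the 10 genes passed (18.5% of all genes), as Per3 (−0.76, edgeR adjusted p = 0.0157) and Nr1d2 (−1.06, edgeR adjusted p = 0.0112) fell as well, and Dbp turned from 0.11 to −1.02 (edgeR adjusted p = 0.0646).

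The wider clock was described with 17 further genes, among them ROR activators, the other PAR bZIP factors, repressors and the kinases and ubiquitin ligases that set the stability of PER and CRY. In aged IgG2a-injected against young mice, 3 of the 16 tested passed with all libraries (17.4% of all genes). Hlf, a PAR bZIP relative of Dbp, fell from 34.0 ± 5.06 to 14.4 ± 6.57 CPM (log2 fold change −1.17, edgeR adjusted p = 0.0181). Rora, an activator at the ROR element, fell by 0.73 (edgeR adjusted p = 0.0165). Bhlhe41, an E-box repressor also known as DEC2, rose from 3.32 ± 1.24 to 9.75 ± 1.80 CPM (1.63, edgeR adjusted p = 0.0087). For these 3 genes, unlike for the 10, replicate 1 lay on the same side of all young libraries as the other IgG2a libraries. The call of Hlf was lost without IgG2a replicate 2 or 3 (edgeR adjusted p = 0.0574 and 0.0620) and that of Rora without IgG2a replicate 3 (edgeR adjusted p = 0.0579). All 3 were lost with the proximal tubule covariate (−0.11 for Hlf, −0.35 for Rora and 1.14 for Bhlhe41), which cannot be separated from these groups.

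Leaving out aged IgG2a replicate 1 raised this count to 7 of 16 (45.6% of all genes). Besides the 3 above, with log2 fold changes of −1.54 for Hlf, −0.85 for Rora and 1.74 for Bhlhe41, the ubiquitin ligase gene Btrc (−0.34) and Npas2 (−2.78) fell, and the kinase gene Csnk1e (0.52) and the ARNTL-CLOCK repressor Ciart (1.40) rose, with edgeR adjusted p-values from 3.1e-05 to 0.0215. Between aPD1ab and IgG2a, 0 of 15 passed with all libraries, with 2 at an unadjusted p under 0.05 (28% of all genes), and 3 of 16 passed without replicate 1 (30.4% of all genes). Those were Npas2 (3.13), Hlf (1.92) and Btrc (0.45), all higher with aPD1ab (edgeR adjusted p from 0.0128 to 0.0200). With all libraries DESeq2 called Hlf (adjusted p = 0.0077), 1 edgeR fit of all 3 groups called Hlf and Btrc (adjusted p = 0.0198 and 0.0431), and voom weights called Npas2, Hlf and Btrc (adjusted p = 0.0175, 0.0037 and 0.0061). Over all the fits tried, the log2 fold change ranged from 0.39 to 1.92 for Hlf and from 0.23 to 0.46 for Btrc. For Npas2 it ranged from −1.20, with the proximal tubule covariate, to 3.13. Hlf was higher in every aPD1ab library (24.2, 76.3, 34.7 and 36.0 CPM) than in every IgG2a library, although only just above replicate 1 (24.1, 12.02, 12.2 and 9.40 CPM). Against young mice, 2 of 16 passed with aPD1ab (22.4% of all genes), Rora (−0.57, edgeR adjusted p = 0.0247) and the D-box repressor gene Nfil3 (0.85, edgeR adjusted p = 0.0278). The call of Rora was lost without young replicate 4 or 5 or aPD1ab replicate 4 (edgeR adjusted p from 0.0518 to 0.0709). That of Nfil3 was lost without any 1 of the young libraries or aPD1ab replicate 4 (edgeR adjusted p from 0.0541 to 0.0795) and in 1 fit of all 3 groups (edgeR adjusted p = 0.143).

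A list of 10 genes with known daily rhythm outside the loop showed the glucocorticoid-responsive repressor gene Klf9 lower in both aged groups. Klf9 stood at 81.6 ± 15.05 CPM in young, 38.7 ± 11.4 CPM in IgG2a-injected and 46.8 ± 8.38 CPM in aPD1ab-injected mice (log2 fold changes over young −1.01 and −0.79, edgeR adjusted p = 0.0140 and 0.0086). Por, which supplies electrons to cytochromes P450, fell with IgG2a by 0.73 (edgeR adjusted p = 0.0125), making 2 of 10 in that comparison (17.4% of all genes), and Zbtb16, a glucocorticoid-induced transcription factor gene, fell with aPD1ab by 1.94 (edgeR adjusted p = 0.0283), again making 2 of 10 (22.4% of all genes). With the proximal tubule covariate, which cannot be separated from the groups, the falls of Klf9 and Por with IgG2a were no longer called (−0.45 and −0.26). The call of Zbtb16 with aPD1ab was lost without young replicate 4 or 5 or aPD1ab replicate 3 or 4 (edgeR adjusted p from 0.0584 to 0.0753), with voom weights (adjusted p = 0.113) and without a filter on low counts (edgeR adjusted p = 0.0930). None of the 10 passed between aPD1ab and IgG2a with all libraries (1 at an unadjusted p under 0.05, against 28% of all genes). Without replicate 1, 4 of 10 passed in IgG2a against young mice (45.6% of all genes), with Klf9 at −1.24 and Por at −0.86, and the heme synthesis gene Alas1 fell by 0.89 and Tsc22d3, also called GILZ, rose by 0.82. Between aPD1ab and IgG2a, 3 of 10 then passed (30.4% of all genes), with Alas1 higher by 0.92, Tsc22d3 lower by 0.61 and Zbtb16 lower by 0.83 (edgeR adjusted p from 0.0279 to 0.0426).

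**Figure D4:**
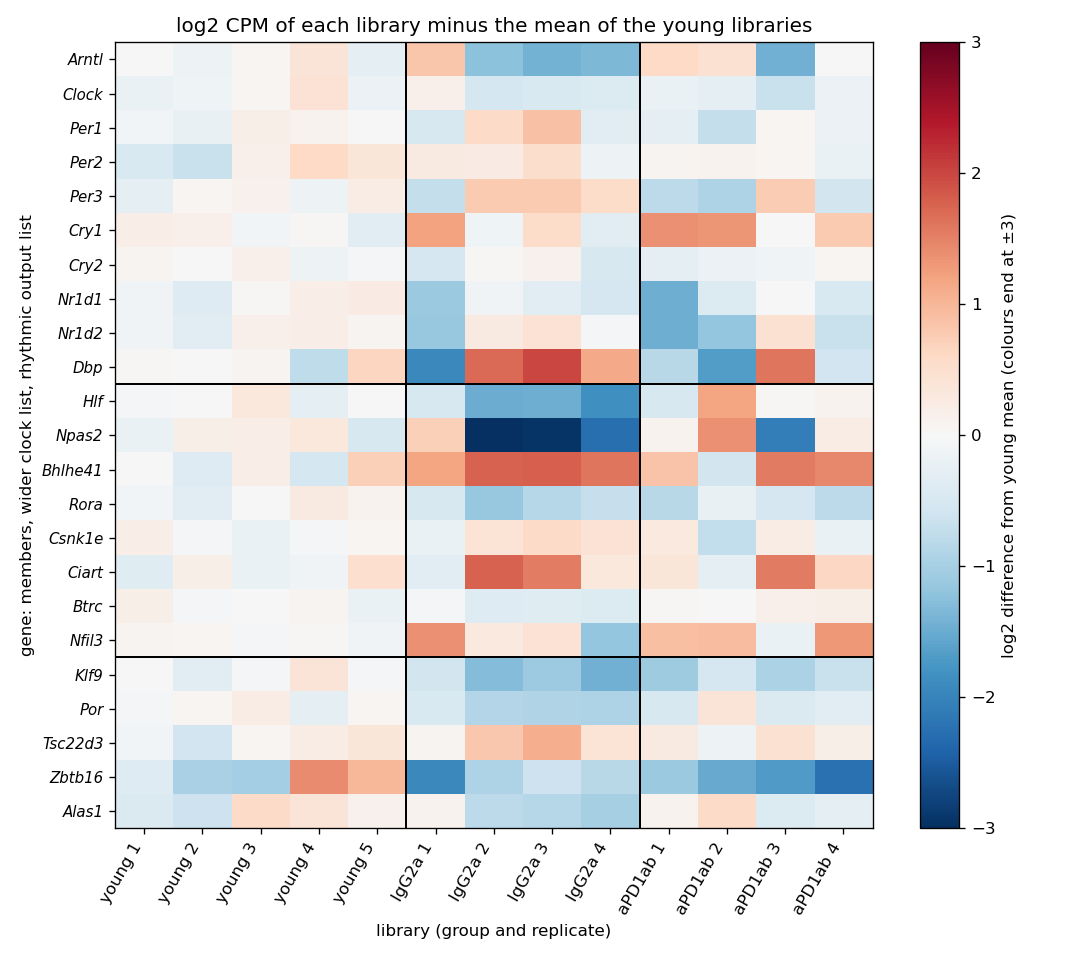
Log2 CPM of each library minus the mean of the young libraries (colour, ending at ±3) for the 10 clock genes (top), the named genes of the wider clock (middle) and of the rhythmic output list (bottom). Columns are libraries by group and replicate. Arntl and Npas2 are blue and Dbp and Per3 red in aged IgG2a replicates 2 to 4 and in aPD1ab replicate 3, with the colours exchanged in IgG2a replicate 1.

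Likeness of pattern was described by Pearson's r of log2 CPM over the 13 libraries, which share their groups, their cell mixture and their depth, so no p is given. Among the 10 genes, the pattern of Arntl was opposite to those of Dbp (r = −0.95), Per3 (−0.92) and Nr1d2 (−0.74) and like that of Clock (0.76), while Per2 (−0.037) and Cry2 (−0.22) showed little relation. Dbp was most like Per3 (0.95), Nr1d2 (0.82) and Per1 (0.76). Among 14042 genes with a mean of at least 1 CPM, and leaving out the 10 themselves, those most like Arntl were Gtf3c1 (0.96), Iqsec1 (0.95), Ppm1h (0.95), Zc3h14 (0.95) and Actn4 (0.94). Gtf3c1 encodes a subunit of transcription factor IIIC and Actn4 an actin crosslinker. Actn4 ranged from 288 to 350 CPM in young mice and stood at 338, 210, 205 and 211 CPM with IgG2a and at 363, 387, 234 and 328 CPM with aPD1ab. Outside the 10, the genes most like Dbp were Tbl1xr1 (0.96), Nap1l1 (0.94), Adam15 (0.93), Brca2 (0.93) and Gm15513 (0.93).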

How the data were processed

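The authors deposited raw read counts for each Ensembl gene, not normalized. The submitters' processing notes name HISAT2, featureCounts and the build mm10 (GRCm38), without versions. Of 15 count columns, 13 were tied to a group by the number beside each library in the study's principal component plot. The other 2, matched to no group, were not used here.

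Symbols (45143 genes), positions and exon lengths came from GENCODE M21 (GRCm38). CPM used TMM library sizes over the 13 libraries, and RPKM divided CPM by exon length in kilobases. Each pair of groups was fitted alone in R 4.3.3 with edgeR 4.0.16 (filterByExpr, TMM, robust quasi-likelihood F test) with Benjamini-Hochberg adjustment over all genes tested, and a gene was called at an adjusted p under 0.05. The procedure was tested on simulated data. Log2 CPM used a prior count of 2. Counts limit precision only through counting error, and 3 counts equal 0.0917 to 0.151 CPM. p-values are judged against the spread between the mice kept in each fit.

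Alternatives were RLE size factors, DESeq2 1.42.0, voom with sample quality weights (limma 3.58.1), other filters, 1 fit of all 3 groups, a proximal tubule marker covariate (mean log2 CPM of Lrp2, Slc34a1, Slc5a2, Slc5a12, Slc22a6 and Slc13a3), mitochondrially encoded genes left out, and each library left out in turn. Podocyte markers were Nphs1, Wt1, Podxl and Synpo, and macrophage markers Ptprc, Adgre1, C1qa, C1qb, Csf1r and Cd68. The clock genes and all lists were chosen with earlier results of these data known. All 10 clock genes are named. Of the wider clock (17 genes) and rhythmic output (10 genes) lists, up to 8 each with an adjusted p under 0.05 in any comparison, with or without aged IgG2a replicate 1, were named by smallest p, and of likeness the 5 highest r. Some genes of the podocyte and wider clock lists are not reported here, and counts leave them out.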

Additional observations from a re-analysis of the deposited data

Results flagged for a closer look

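In groups of 4 or 5 libraries, the highest and lowest library were compared with the rest by Dixon's gap test for each of the 10 clock genes, 30 groups in all. In 4 of them 1 library stood apart, where chance gives about 1 in 20. The 30 groups share their libraries and some of the genes vary together, so these tests are not independent. The 4 are therefore not shown to exceed that rate. In the aged IgG2a-injected group that library was replicate 1, with 35.3 CPM of Arntl (the other 3 lay between 7.33 and 8.34) and 62.9 CPM of Clock (39.5 to 42.7). Among the aged aPD1ab-injected mice it was replicate 3, with 18.5 CPM of Per3 (5.66 to 7.34 in the other 3) and 22.1 CPM of Dbp (2.20 to 4.83). No cause of these 4 values was tested.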

How the results depend on the processing

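No paired analysis was possible because the count columns carry no replicate number shared between the groups. With IgG2a against young mice, the number of genes called moved from 2780 to 4455 with DESeq2, 7423 with voom weights and 17 with the proximal tubule covariate, and ranged from 553 to 7397 when 1 library was left out. Of the 10 clock genes, voom weights called 4 there, and leaving out 1 library gave 0 to 4. For aPD1ab against IgG2a, 0 genes were called with edgeR, 2373 with DESeq2, 6160 with voom weights, 2863 in 1 fit of all 3 groups and 0 to 4788 with 1 library left out. Voom weights called 4 clock genes and leaving out 1 library 0 to 1. Against young mice with aPD1ab, 2369 to 3868 genes and 0 to 3 clock genes were called with 1 library left out. In 1 fit of all 3 groups, 0 clock genes were called, against 17.8% of all genes. The covariate fit called 2 (Cry1, and Per1 at −0.37), against 33.1% of all genes.

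The proximal tubule covariate turned the most directions. Its markers did not overlap between IgG2a-injected and young mice, so the values of that comparison cannot separate the groups from tubule content. The log2 fold changes of IgG2a over young mice became 1.26 for Arntl, 0.23 for Clock, −0.68 for Per1, −1.01 for Per3, −1.43 for Nr1d2, −2.51 for Dbp, 1.69 for Npas2, −0.93 for Ciart, −0.39 for Csnk1e, 0.015 for Btrc, 0.37 for Alas1 and −0.080 for Tsc22d3. Those of aPD1ab over IgG2a became −0.82 for Arntl, 0.29 for Per1, 0.70 for Per3, −0.44 for Cry1, 0.47 for Nr1d1, 0.76 for Nr1d2, 2.06 for Dbp, −1.20 for Npas2, −0.20 for Alas1, 0.18 for Tsc22d3 and 0.040 for Zbtb16, and that of aPD1ab over young mice became −0.78 for Dbp. None of these 24 turned values had an adjusted p under 0.05. Voom weights turned Cry2 to 0.0079 (IgG2a over young), Clock to 0.13 and Cry2 to −0.042 (aPD1ab over IgG2a), and Per2 to 0.11 and Dbp to −0.48 (aPD1ab over young). In 1 fit of all 3 groups Nr1d2 turned to −0.021 (IgG2a over young).

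With 1 library left out, directions turned for Nr1d2 (−0.13 to 0.28, IgG2a over young), for Clock (−0.14 to 0.11), Cry2 (−0.068 to 0.17) and Nr1d1 (−0.23 to 0.19) in aPD1ab over IgG2a, and for Arntl (−0.14 to 0.36), Per2 (−0.20 to 0.10) and Dbp (−1.02 to 0.42) in aPD1ab over young mice. RLE size factors, both other filters and leaving out mitochondrially encoded genes turned no direction of the genes named in the lists and changed no call of a clock gene. The cause of these shifts was not tested.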
